A study of Mus musculus with 18 samples.

Results

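Fc receptors bind the constant part of antibodies and tie the antibody response to the cells that take up antigen. The data described here are the mRNA levels of 6 genes of this family in mouse bone marrow-derived DCs. They are the activating receptors for IgG *Fcgr1*, *Fcgr3* and *Fcgr4*, the inhibitory receptor *Fcgr2b*, the signalling chain *Fcer1g* and the heavy chain of the neonatal Fc receptor, *Fcgrt*. They were picked by symbol from the deposited table of normalized counts, which has 62197 genes, 25177 of them with a symbol. Each of the 6 symbols was found once, and all 6 genes passed the filter on low values.

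On DCs, the activating Fcγ receptors capture immune complexes, and they signal through an adjacent γ chain whose tyrosine motif (ITAM) recruits the kinase Syk. FcγRIIB instead carries an inhibitory motif (ITIM) that recruits the phosphatase SHIP-1, the product of *Inpp5d*, so that the balance of both receptor types sets how readily immune complexes mature a DC. The neonatal receptor FcRn pairs its heavy chain with β2-microglobulin, works inside endosomes, spares IgG from degradation and routes immune complexes toward antigen presentation.

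The DCs came from cPLA_2_ WT mice and from cPLA_2_ KO mice, in which a conditional *Pla2g4a* allele is deleted by Cre under the *Itgax* (CD11c) promoter on a C57BL/6 background. A cell in the culture that does not use this promoter keeps the gene. Marrow of donors aged 6 to 8 weeks, of both sexes, was cultured with GM-CSF for 10 days, and the semi-adherent fraction was taken from a culture that also gives rise to granulocytes and macrophages. The paper's methods state that granulocytes are removed as nonadherent cells and that macrophages stay attached to the plate. They also state that most of the recovered cells carry CD11c. Some cells stayed nonconfined, some were brought to a height of 3 µm by confinement, and some were exposed to LPS at 100 ng/ml, for 30 min according to the labels, then washed and collected on the next day. Confined cells were collected 4 h after the start of confinement and nonconfined cells directly at the end of the culture. Treatment, time and handling therefore cannot be told apart in any comparison between treatments. With both genotypes this gave 6 groups of 3 libraries. The protocol text mentions LPS for all samples, and the titles and treatment entries were followed instead. The labels do not state that replicates came from separate animals or cultures, so the p-values measure the spread between these libraries alone.

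Libraries held between 33027230 and 61300021 reads on genes. The values are gene counts divided by a size factor per library, with no scaling for gene length, and are called normalized counts below. *Pla2g4a*, which encodes cPLA_2_, was lower in each cPLA_2_ KO library than in each cPLA_2_ WT library of the same treatment among nonconfined and confined cells, but only 1.33-fold in nonconfined and 1.52-fold in confined cells, so that most of the reads counted for it remained. Counts over the whole gene do not show whether these transcripts were intact. The *Pla2g4a* level in confined cPLA_2_ KO cells exceeded that in nonconfined cPLA_2_ WT cells. In the libraries labelled LPS it stood at 1005, 969 and 967 under the cPLA_2_ WT label and at 1065, 1032 and 1028 under the cPLA_2_ KO label, with no lower values under the latter. The Y-linked gene *Ddx3y* stood at 1271, 0 and 662 in the 3 libraries labelled LPS cPLA_2_ WT and at 2.12, 1476 and 783 in the 3 labelled LPS cPLA_2_ KO. In nonconfined and confined cells it was between 0 and 3.05 in each cPLA_2_ WT library and between 874 and 1036 in each cPLA_2_ KO library. Genotype therefore cannot be told apart from donors or from their sex there, in any comparison of genotypes or interaction. The female marker *Xist* ranged from 22734 to 33681 in the cPLA_2_ WT and from 12153 to 24835 in the cPLA_2_ KO libraries of these groups. Each of these cPLA_2_ KO libraries thus held both *Ddx3y* and *Xist*. *Acot1* was between 377.0 and 626 in these cPLA_2_ KO libraries and no higher than 54.9 in any LPS library. The genotype labels of the LPS libraries do not follow these genes, and the 6 libraries were pooled over the labels. By the distance between libraries (chi-square per degree of freedom), cPLA_2_ WT replicate 2 and cPLA_2_ KO replicate 1 were 5.45 apart and cPLA_2_ WT replicate 3 and cPLA_2_ KO replicate 3 were 6.59 apart, and cPLA_2_ WT replicate 1 and cPLA_2_ KO replicate 2 were 13.7 apart. Libraries within an LPS label were 10.6 to 48.6 apart, and those within the other groups 4.09 to 18.2. The SDs and p-values count the LPS libraries as 6 sources, which the labels do not state.

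All 10 DC markers examined were detected in each group, as were markers of other myeloid cells, with *Cd74*, the MHC class II invariant chain, as the most abundant at 240559 ± 10332 normalized counts in nonconfined cPLA_2_ WT DCs.

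Per kilobase of annotated exon, the levels of the receptor genes in nonconfined cPLA_2_ WT DCs spanned a wide range. The γ chain gene *Fcer1g* was the most abundant, at 19023 ± 96.0 normalized counts per kilobase (SD, n = 3). *Fcgr3* followed at 3046 ± 36.8 and *Fcgr1* at 907 ± 23.4. *Fcgr2b* at 386 ± 4.86, *Fcgrt* at 336 ± 4.99 and *Fcgr4* at 125 ± 20.3 were the least abundant on this scale. Nonconfined cPLA_2_ KO DCs had the same order, and the confined and LPS groups had others. In confined cPLA_2_ WT DCs *Fcgrt* was in the last place, at 163 ± 5.20 per kilobase against 183 ± 10.6 for *Fcgr4*. This place rests on the length used. All annotated exons of *Fcgrt* cover 4917 bases but its canonical transcript 2932, while *Fcgr4* has 1279 in both. On the canonical length *Fcgrt* would stand above *Fcgr4*. In confined cPLA_2_ KO DCs *Fcgr2b*, at 581 ± 13.4 per kilobase, stood above *Fcgr1*, at 408 ± 20.1. In the LPS libraries *Fcgr2b* at 1251 ± 67.6 and *Fcgr1* at 1219 ± 124 per kilobase (SD, n = 6) differed by less than their spread. This closeness also rests on the length. *Fcgr2b* has 5854 bases of annotated exon and 3403 in the canonical transcript, and *Fcgr1* has 3490 and 2642.

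**Figure D1:**
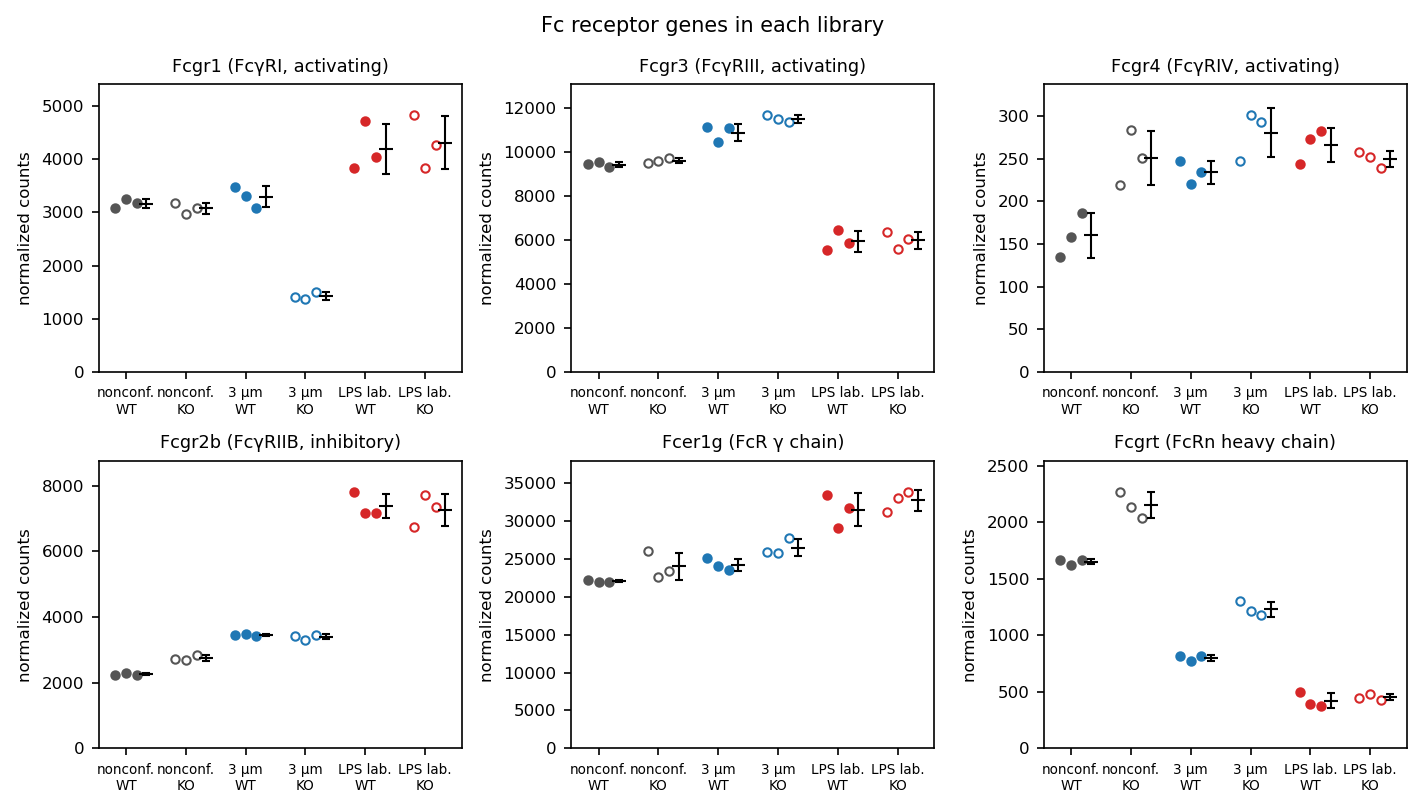
Normalized counts (vertical axes) of the 6 Fc receptor genes in each library of the 6 groups, with a point per library, filled for cPLA_2_ WT and open for cPLA_2_ KO, and the mean ± SD of the 3 libraries as a bar. *Fcgr1* was low in the 3 confined cPLA_2_ KO libraries, between 1368 and 1503, while *Fcgrt* was low in the LPS libraries, between 374 and 499.

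With confinement, the receptor genes moved in different directions. In cPLA_2_ WT DCs the inhibitory receptor *Fcgr2b* rose from 2259.8 ± 28.5 to 3446 ± 26.4 normalized counts (SD, n = 3), whereas *Fcgrt* fell from 1653 ± 24.5 to 802 ± 25.6. In cPLA_2_ KO DCs *Fcgr1* fell from 3080.0 ± 103 to 1424 ± 70.1, whereas its values overlapped in cPLA_2_ WT DCs. These are levels in bulk RNA, in which fewer cells of a type and less RNA per cell cannot be told apart.

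Genes were called by limma when the adjusted p was below 0.05, whatever the fold change, and 17875 genes were tested. With confinement in cPLA_2_ WT DCs, 5 of the 6 receptor genes were called, beside 56.6% of all genes tested. Of these, 4 were higher, beside 28.2% of all genes, and 1 was lower, beside 28.4%, and 2 of the 4 higher, *Fcgr3* and *Fcer1g*, turned lower when each library was scaled to the same total. That scaling moved the median of all genes in this comparison from -0.01 to -0.23, which is the reference for the changes it gives. With confinement in cPLA_2_ KO DCs, 5 were called beside 46.3%, with 3 higher beside 22.8% and 2 lower beside 23.4%. The interaction, which tests whether the change with confinement differed between genotypes, was called for 2 of the 6 genes, *Fcgr1* and *Fcgr2b*, beside 25.8% of all genes. With 6 genes each count moves in large steps, and the direction and size of the single genes carry the description.

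Between genotypes without confinement, 3 of the 6 genes were called, *Fcgr4*, *Fcgr2b* and *Fcgrt*, all higher in cPLA_2_ KO DCs, beside 8.88% of all genes in either direction. In confined cells 2 of the 6 were called, *Fcgr1* lower and *Fcgrt* higher in cPLA_2_ KO DCs, beside 39.4%. The first of these background counts, 1588 genes, was 993, 842 or 846 without nonconfined cPLA_2_ WT replicate 1, 2 or 3, and 756 or 864 without nonconfined cPLA_2_ KO replicate 1 or 3. The 3 receptor genes stayed called in each of these settings.

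LPS against nonconfined cells, with the labels pooled, called all 6 receptor genes, beside 71.5% of all genes. The 4 higher, beside 37.2%, were *Fcgr1*, *Fcgr4*, *Fcgr2b* and *Fcer1g*, and of these all but *Fcgr2b* turned slightly lower with the same total per library, which moved the median of all genes from 0.02 to -0.47. The 2 lower, beside 34.3%, were *Fcgr3* and *Fcgrt*. Against the LPS libraries, 5 of 6 were called in confined cPLA_2_ WT cells, beside 54.3%, and 5 of 6 in confined cPLA_2_ KO cells, beside 62.9%. In both, *Fcgr3* and *Fcgrt* were higher in confined cells and *Fcgr1*, *Fcgr2b* and *Fcer1g* lower, except that *Fcer1g* in confined cPLA_2_ KO cells turned higher with the same total per library (0.17). That scaling moved the median of all genes from -0.01 to 0.27 in the cPLA_2_ WT and from 0.03 to 0.47 in the cPLA_2_ KO comparison. Between the libraries labelled LPS cPLA_2_ KO and those labelled LPS cPLA_2_ WT, limma called 0 of the 6 receptor genes and 0 of all genes tested (0%). In this comparison 890 of 17875 genes (4.98%) had an unadjusted p under 0.05, edgeR and DESeq2 also called 0, and 3 genes were called by limma without the library labelled LPS cPLA_2_ WT replicate 2.

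**Figure D2:**
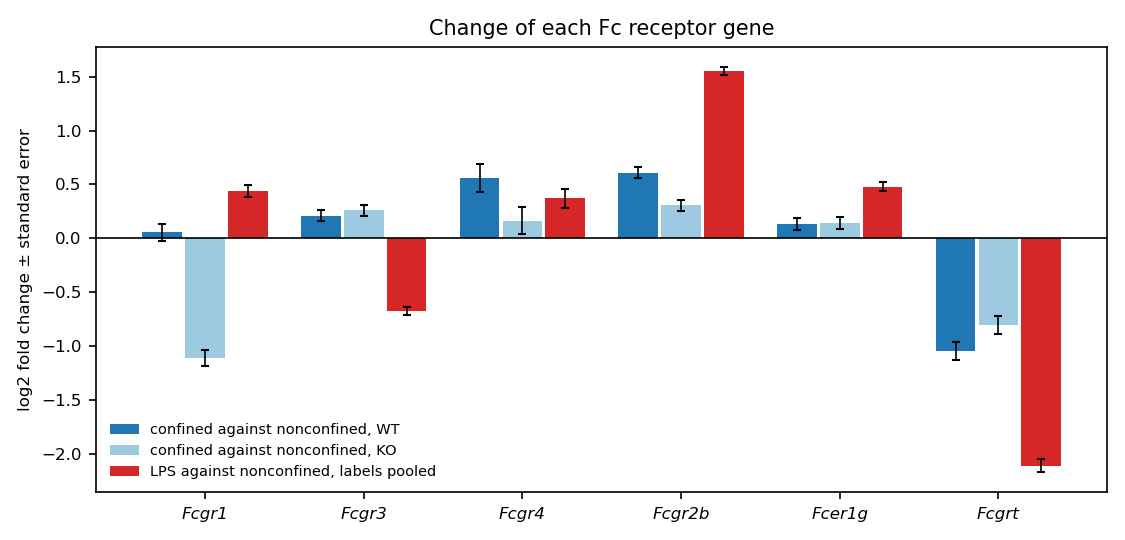
Log2 fold change (vertical axis) of each Fc receptor gene (horizontal axis) from limma with confinement in cPLA_2_ WT DCs, with confinement in cPLA_2_ KO DCs and with LPS, where bars start at 0 and error bars are ± 1 standard error. *Fcgr1* has its downward bar in confined cPLA_2_ KO DCs (-1.11) and *Fcgrt* points down in each comparison, while scaling to the same total turns the upward bars of *Fcgr1*, *Fcgr3* and *Fcer1g* with confinement in cPLA_2_ WT DCs (-0.17, -0.02 and -0.09) and of *Fcgr1*, *Fcgr4* and *Fcer1g* with LPS (-0.06, -0.12 and -0.02).

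*Fcgr1* (identifier GSMG0035711, minus strand of chromosome 3, 96190225 to 96201287 of GRCm39) encodes FcγRI, the high-affinity receptor for monomeric IgG. Nonconfined cPLA_2_ WT libraries held 3079.9, 3243 and 3174 normalized counts in replicates 1, 2 and 3. Nonconfined cPLA_2_ KO libraries held 3183, 2977 and 3080.4. The nonconfined genotypes overlapped, with a log2 fold change of -0.04 (adjusted p = 0.829, standard error 0.08) for cPLA_2_ KO against cPLA_2_ WT. Confined cPLA_2_ WT libraries held 3479, 3315 and 3084. Confined cPLA_2_ KO libraries held 1402, 1368 and 1503. The 3 confined cPLA_2_ KO libraries were the lowest of all 18, each at less than the lowest confined cPLA_2_ WT library, while the confined cPLA_2_ WT libraries overlapped with both nonconfined groups. With confinement the gene changed by 0.06 (adjusted p = 0.565, standard error 0.08) in cPLA_2_ WT DCs, a value that missed the threshold and turned to -0.17, also not called, with the same total per library. It changed by -1.11 (adjusted p = 1.24e-10, standard error 0.08) in cPLA_2_ KO DCs. The latter is a 2.16-fold decrease. The interaction was -1.17 (adjusted p = 2.34e-08, standard error 0.11). Confined cPLA_2_ KO cells had 2.31-fold less *Fcgr1* mRNA than confined cPLA_2_ WT cells, a log2 fold change of -1.21 (adjusted p = 2.41e-11, standard error 0.08). LPS libraries ranged from 3831 to 4827 with a median of 4151. All 6 lay above each nonconfined and confined library. The increase with LPS was 0.44 (adjusted p = 2.18e-07, standard error 0.05) and went to -0.06 with the same total per library. Confined cPLA_2_ KO cells were 2.98-fold below LPS cells (-1.57, adjusted p = 6e-15, standard error 0.07). Confined cPLA_2_ WT cells were 1.29-fold below them (-0.36, adjusted p = 7.72e-05, standard error 0.07), a difference that shrank to -0.08 and missed the threshold with the same total per library. In order of group means *Fcgr1* spanned a factor of 2.99 from confined cPLA_2_ KO to LPS, and the groups between them, nonconfined cPLA_2_ KO, nonconfined cPLA_2_ WT and confined cPLA_2_ WT, did not separate.

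Within the LPS libraries *Fcgr1* was not spread by label. The libraries labelled LPS cPLA_2_ WT held 3831, 4723 and 4039 in replicates 1, 2 and 3 and those labelled LPS cPLA_2_ KO held 4827, 3844 and 4264. The highest values under each label, cPLA_2_ WT replicate 2 and cPLA_2_ KO replicate 1, belonged to the 2 libraries in which *Ddx3y* was at 0 and 2.12. *Fcgr3* was also highest in these 2 libraries, at 6451 and 6334. *Fcer1g* was lowest in them, at 29133 and 31248. The part of the donors in these differences was not tested.

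*Fcgr3* (identifier GSMG0002737, minus strand of chromosome 1, 170878738 to 170886972) encodes FcγRIII, the low-affinity activating receptor for immune complexes. It held 9429.5, 9525 and 9298 normalized counts in nonconfined cPLA_2_ WT and 9479, 9598 and 9707 in nonconfined cPLA_2_ KO libraries. In confined cells it held 11118, 10445 and 11072 in cPLA_2_ WT libraries. Confined cPLA_2_ KO libraries held 11662, 11477 and 11336. All confined libraries lay above all nonconfined ones, and the nonconfined genotypes overlapped. The gene rose with confinement by 0.21 (adjusted p = 0.00171, standard error 0.05) in cPLA_2_ WT DCs, which turned to -0.02 with the same total per library. The rise in cPLA_2_ KO DCs was 0.26 (adjusted p = 0.0003, standard error 0.05), a 1.20-fold increase. The interaction was 0.05 (adjusted p = 0.659, standard error 0.07) and missed the threshold, but passed it with the same total per library, at 0.24, where the median of all genes moved from 0.05 to 0.24. Each confined cPLA_2_ KO library was above each confined cPLA_2_ WT library, by 0.08 (adjusted p = 0.246, standard error 0.05), which missed the threshold and passed it with the same total per library (0.23, with a median of 0.19 over all genes). LPS libraries ranged from 5523 to 6451 with a median of 5931, all of them below the other 12 libraries. The decrease with LPS was 1.60-fold (-0.68, adjusted p = 2.92e-13, standard error 0.04). *Fcgr3* thus had opposite signs with confinement and with LPS in cPLA_2_ KO DCs and, on the scale of the deposited values, in cPLA_2_ WT DCs too. Confined cPLA_2_ WT cells held 1.83-fold and confined cPLA_2_ KO cells 1.93-fold as much *Fcgr3* mRNA as LPS cells, log2 fold changes of 0.87 (adjusted p = 5.86e-13) and 0.95 (adjusted p = 4.89e-14).

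*Fcgr4* (identifier GSMG0001144, plus strand of chromosome 1, 170846489 to 170857330) encodes FcγRIV, an activating receptor found in the mouse. It was the least read of the 6 genes, with 177 to 321 reads per library, so the relative counting error is largest for it. Nonconfined cPLA_2_ WT libraries held 135, 158 and 187 normalized counts. In nonconfined cPLA_2_ KO libraries there were 219, 283 and 250.4. The 3 nonconfined cPLA_2_ WT libraries were the lowest of all 18, and cPLA_2_ KO cells held 1.57-fold more *Fcgr4* mRNA (0.65, adjusted p = 0.00254, standard error 0.13). Confined cPLA_2_ WT libraries held 247, 220.4 and 234. In confined cPLA_2_ KO libraries there were 247, 301 and 292. With confinement *Fcgr4* rose 1.47-fold in cPLA_2_ WT DCs (0.56, adjusted p = 0.000709, standard error 0.13), with no overlap. The groups overlapped in cPLA_2_ KO DCs with a change of 0.16 (adjusted p = 0.319, standard error 0.13). The difference between these changes was itself -0.40 (adjusted p = 0.112, standard error 0.18), which missed the threshold, and was -0.52 and called without nonconfined cPLA_2_ WT replicate 3. Confined cPLA_2_ KO and cPLA_2_ WT cells differed by 0.25 (adjusted p = 0.122, standard error 0.13), below the threshold, and by 0.41, past it, with the same total per library. LPS libraries ranged from 239 to 282 with a median of 255, within the range of the nonconfined cPLA_2_ KO libraries. The pooled increase with LPS was 0.37 (adjusted p = 0.000881, standard error 0.09), and it was -0.12 with the same total per library. Against nonconfined cPLA_2_ KO cells alone, the libraries labelled LPS cPLA_2_ KO differed by -0.001 and those labelled LPS cPLA_2_ WT by 0.09. The pooled value is hence a distance from nonconfined cPLA_2_ WT cells. From confined cPLA_2_ WT cells, LPS cells were not separated (-0.14, adjusted p = 0.302, standard error 0.11), and the value turned to 0.15, also not called, with the same total per library. Confined cPLA_2_ KO and LPS cells differed by 0.12 (adjusted p = 0.369, standard error 0.11), or by 0.56, past the threshold, with the same total per library. In the order of group means, only nonconfined cPLA_2_ WT DCs stood apart, and each of the other neighbours overlapped.

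*Fcgr2b* (identifier GSMG0002736, minus strand of chromosome 1, 170788136 to 170804116) encodes FcγRIIB, the inhibitory receptor of the family. Nonconfined cPLA_2_ WT libraries held 2249, 2292 and 2239 normalized counts. Nonconfined cPLA_2_ KO libraries were higher, with 2734, 2678 and 2846. All 3 lay above the cPLA_2_ WT libraries, by a factor of 1.22 (0.28, adjusted p = 0.000975, standard error 0.05). After confinement, cPLA_2_ WT libraries held 3438, 3476 and 3424. Confined cPLA_2_ KO libraries held 3422, 3314 and 3467. The genotypes overlapped after confinement, and the difference between them was -0.02 (adjusted p = 0.799, standard error 0.05), a value near 0 that turned to 0.14, past the threshold, with the same total per library. From the lower start, *Fcgr2b* rose 1.52-fold in cPLA_2_ WT DCs (0.61, adjusted p = 7.85e-10, standard error 0.05). In cPLA_2_ KO DCs it rose 1.24-fold (0.30, adjusted p = 3.02e-05, standard error 0.05). The interaction was -0.30 (adjusted p = 0.00233, standard error 0.07), so the rise was larger in cPLA_2_ WT DCs, but it was -0.12 and no longer called with the same total per library. That scaling moved the median interaction of all genes from 0.05 to 0.24. LPS libraries ranged from 6736 to 7815 with a median of 7258. All lay far above the highest confined library. The increase with LPS was 2.93-fold (1.55, adjusted p = 5.14e-20, standard error 0.04), the largest rise among the 6 genes. It remained an increase, of 1.06, with the same total per library. Confined cPLA_2_ WT cells were 2.12-fold and confined cPLA_2_ KO cells 2.15-fold below LPS cells, log2 fold changes of -1.09 (adjusted p = 6.57e-15) and -1.10 (adjusted p = 1.39e-15). The group means spanned a factor of 3.24, in steps from nonconfined cPLA_2_ WT to nonconfined cPLA_2_ KO, to both confined groups and to LPS, with no overlap between steps.

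*Fcer1g* (identifier GSMG0002744, minus strand of chromosome 1, 171057143 to 171061918) encodes the FcR γ chain, which the activating receptors need for their surface expression and signal. It held 22175, 22000.1 and 21969 normalized counts in nonconfined cPLA_2_ WT libraries. Nonconfined cPLA_2_ KO libraries held 25994, 22600.1 and 23424. Replicate 1 stood above the other nonconfined cPLA_2_ KO libraries, and all 3 were above the cPLA_2_ WT libraries, by 0.12 (adjusted p = 0.196, standard error 0.06), which missed the threshold. Confined cPLA_2_ WT libraries held 25119, 23998 and 23483. Confined cPLA_2_ KO libraries held 25909.7, 25749.9 and 27791. Confined cPLA_2_ WT libraries lay above nonconfined ones, whereas the cPLA_2_ KO groups overlapped. The change with confinement was small in both genotypes, 0.13 (adjusted p = 0.0431, standard error 0.06) in cPLA_2_ WT and 0.14 (adjusted p = 0.0374, standard error 0.06) in cPLA_2_ KO DCs, and in cPLA_2_ WT DCs it turned to -0.09 with the same total per library. Leaving out a single library took the call away in several cases. In cPLA_2_ WT DCs the value was 0.14, 0.13 or 0.13 and not called without nonconfined replicate 1, 2 or 3, and 0.11 or 0.14 and not called without confined replicate 1 or 2. In cPLA_2_ KO DCs it was 0.10 or 0.13 without nonconfined replicate 2 or 3, and 0.11 without confined replicate 3, again not called. It was not called in either genotype when genes with low values were kept in the test, and with the same total per library it was 0.11 and not called in cPLA_2_ KO DCs. The interaction was 0.01 (adjusted p = 0.951, standard error 0.08), a value near 0 whose sign changed with TMM scaling, edgeR and DESeq2 and without nonconfined cPLA_2_ KO replicate 2 (-0.033) or 3 (-0.007), confined cPLA_2_ WT replicate 3 (-0.012) or confined cPLA_2_ KO replicate 3 (-0.026). It was 0.20 and called with the same total per library, where the median of all genes was 0.24. Confined cPLA_2_ KO libraries were each above confined cPLA_2_ WT libraries, by 0.13 (adjusted p = 0.0668, standard error 0.06), a difference that passed the threshold when these groups were fitted alone, with the same value, and with the same total per library (0.28). LPS libraries ranged from 29133 to 33852 with a median of 32393, above all others. The increase with LPS was 1.39-fold (0.48, adjusted p = 2.96e-10, standard error 0.04) and turned to -0.02 with the same total per library. LPS cells exceeded confined cPLA_2_ WT cells 1.32-fold (-0.41, adjusted p = 2.68e-07 for confined against LPS). They exceeded confined cPLA_2_ KO cells 1.21-fold (-0.28, adjusted p = 3.19e-05), which turned to 0.17 with the same total per library. With a factor of 1.46 between the highest and lowest group mean, *Fcer1g* varied least of the 6 genes.

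*Fcgrt* (identifier GSMG0051002, minus strand of chromosome 7, 44742417 to 44753246) encodes the heavy chain of FcRn. Nonconfined cPLA_2_ WT libraries held 1670.3, 1625 and 1665 normalized counts. Nonconfined cPLA_2_ KO libraries held 2271, 2137 and 2042. Each cPLA_2_ KO library was above each cPLA_2_ WT library, a 1.30-fold difference (0.38, adjusted p = 0.00726, standard error 0.08). Confined cPLA_2_ WT libraries held 819, 773 and 814. Confined cPLA_2_ KO libraries held 1307, 1212 and 1176. Both confined groups lay below both nonconfined groups, and among confined cells the cPLA_2_ KO libraries were again the higher ones. With confinement *Fcgrt* fell 2.06-fold in cPLA_2_ WT DCs (-1.04, adjusted p = 7.1e-10, standard error 0.08). The decrease in cPLA_2_ KO DCs was 1.75-fold (-0.80, adjusted p = 8.9e-08, standard error 0.08). The interaction was 0.24 (adjusted p = 0.152, standard error 0.12) and missed the threshold. It passed the threshold with the same value when the 4 compared groups were fitted alone, and at 0.43 with the same total per library. The median interaction of all genes was 0.24 at the same total. Confined cPLA_2_ KO cells held 1.53-fold the *Fcgrt* mRNA of confined cPLA_2_ WT cells (0.62, adjusted p = 3.94e-06, standard error 0.08). LPS libraries ranged from 374 to 499 with a median of 437, below all others. The decrease with LPS was 4.33-fold (-2.11, adjusted p = 2.65e-18, standard error 0.06), the largest change of any of the 6 genes in the comparisons made. Confined cPLA_2_ WT cells held 1.84-fold and confined cPLA_2_ KO cells 2.83-fold the level of LPS cells, with adjusted p = 1.32e-09 and 8.03e-14. Its group means spanned a factor of 4.92, the widest of the 6, and apart from the pair of LPS labels no neighbouring groups overlapped. *B2m*, which encodes the light chain of FcRn and of MHC class I, differed from *Fcgrt* with LPS. It stood at 103069.9 ± 1817 normalized counts in nonconfined and 117146 ± 2322 in confined cPLA_2_ WT cells, at 97652 ± 5969 and 91372 ± 4606 in cPLA_2_ KO cells, and at 173257 ± 5128 in LPS libraries (SD, n = 6). Its log2 fold change was 0.18 (adjusted p = 0.00195) with confinement in cPLA_2_ WT DCs, which turned to -0.040 and missed the threshold with the same total per library. With LPS it was 0.79 (adjusted p = 3.27e-15), or 0.292 and called at the same total. With confinement in cPLA_2_ KO DCs it gave -0.10 (adjusted p = 0.104), or -0.131 and called at the same total. Its interaction was -0.28 (adjusted p = 0.00298), or -0.091 and not called at the same total.

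Because activating and inhibitory receptors compete for the same immune complexes, their ratio was formed within each library, where no scaling between libraries enters. The ratios are of normalized counts, on the log2 scale, and are given without a test. *Fcgr3* over *Fcgr2b* was 2.06 ± 0.008 (SD, n = 3) in nonconfined cPLA_2_ WT and 1.80 ± 0.036 in nonconfined cPLA_2_ KO DCs. In confined cells it was 1.66 ± 0.061 for cPLA_2_ WT and 1.76 ± 0.043 for cPLA_2_ KO DCs. LPS libraries lay at -0.30 ± 0.164 (SD, n = 6), from -0.50 to -0.09. The ratio was thus highest in nonconfined cPLA_2_ WT cells, lower and close together in the next 3 groups, and lowest with LPS, where the inhibitory receptor had the larger count in each of the 6 libraries. Per kilobase of exon, the mean level of *Fcgr3* remained above that of *Fcgr2b* in all groups, by a factor of 7.89 in nonconfined cPLA_2_ WT and 1.54 in LPS cells.

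The other activating receptors gave other orders. *Fcgr1* over *Fcgr2b* was 0.49 ± 0.028 in nonconfined cPLA_2_ WT and 0.16 ± 0.053 in nonconfined cPLA_2_ KO DCs. After confinement it was -0.07 ± 0.084 for cPLA_2_ WT and -1.26 ± 0.044 for cPLA_2_ KO DCs, and it was -0.79 ± 0.217 with LPS. Here confined cPLA_2_ KO cells were at the bottom, below each LPS library. *Fcgr4* over *Fcgr2b* was -3.83 ± 0.237 and -3.46 ± 0.201 in nonconfined cPLA_2_ WT and cPLA_2_ KO DCs. It was -3.88 ± 0.092 and -3.60 ± 0.168 in confined cPLA_2_ WT and cPLA_2_ KO DCs, and -4.82 ± 0.145 with LPS. The LPS libraries were the lowest for this ratio, and the 4 other groups overlapped in part.

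**Figure D3:**
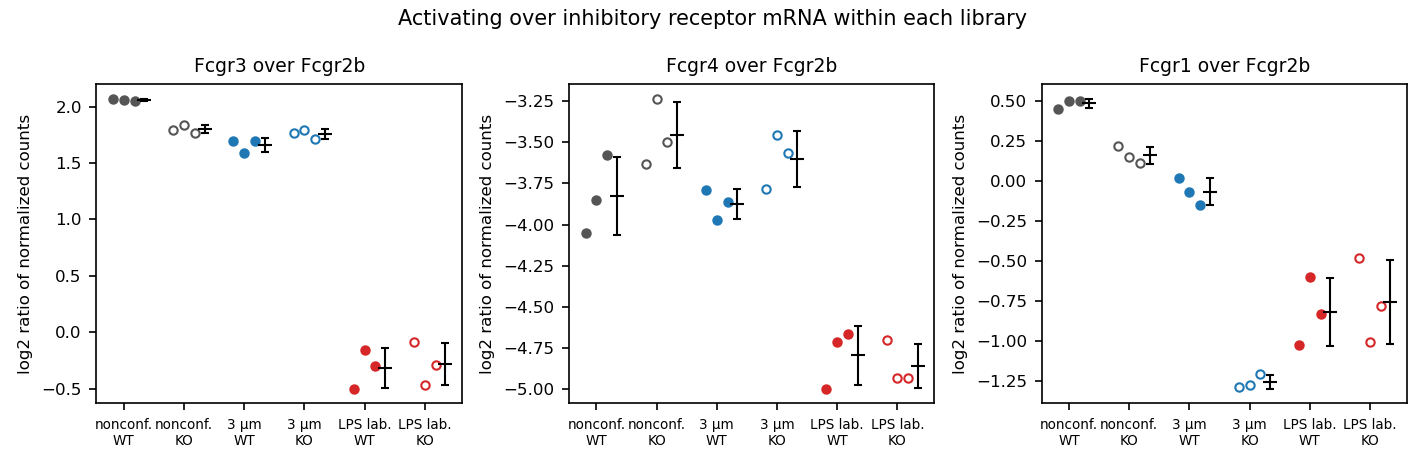
Log2 ratio of normalized counts (vertical axes) of each activating receptor gene over *Fcgr2b* in each library of the 6 groups, with filled points for cPLA_2_ WT, open points for cPLA_2_ KO and the mean ± SD of 3 libraries as a bar. The ratio with *Fcgr3* lies above 0 in nonconfined and confined libraries and below 0 in the LPS libraries, while the ratio with *Fcgr1* is lowest in confined cPLA_2_ KO libraries, between -1.29 and -1.21.

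Over the 18 libraries, *Fcgr2b* and *Fcer1g* had the closest profiles among the 6 genes, with a Pearson r of 0.948 of log2 values, but r was 0.034 with the same total per library, so their likeness rests on the scale of the deposited values. *Fcgr2b* and *Fcgrt* ran opposite, with r = -0.928, or -0.914 at the same total. So did *Fcgr3* and *Fcgr2b*, with r = -0.844, or -0.895 at the same total. These values describe groups of 3 libraries that share a treatment and are no independent points. On the deposited scale, among 10421 other genes with a single symbol and a mean of at least 100 normalized counts, those most like *Fcgr1* were *4930520O04Rik* (r = 0.986), *Hspa5* (0.983) and *Mylk* (0.975). For *Fcgr3* they were *Creg2* (r = 0.988), *Tmem156* (0.987) and *Trpv2* (0.987). *Fcgr4* had less close neighbours, *Myo1d* (r = 0.84), *Gpcpd1* (0.803) and *Mocos* (0.799). The nearest to *Fcgr2b* were *Tmbim6* (r = 0.994), *Mreg* (0.994) and *Rala* (0.992). *Fcer1g* lay closest to *Ostf1* (r = 0.978), *Rhoa* (0.977) and *Ssu72* (0.974). *Fcgrt* lay closest to *Ccn3* (r = 0.992), *Naaa* (0.992) and *Dok3* (0.991).

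A stretch of chromosome 1 carries, in this order, *Fcgr2b*, *Fcgr4*, *Fcgr3* and *Fcer1g*, whereas *Fcgr1* lies on chromosome 3 and *Fcgrt* on chromosome 7. Between 100 kb before *Fcgr2b* and 100 kb after *Fcer1g*, from 170688136 to 171161918, the table has 23 genes with a symbol, of which 20 were tested. Among them are 16 tested genes that are not Fc receptor genes of the set. Of these, 5 rose and 6 fell with confinement in cPLA_2_ WT DCs, beside 28.2% and 28.4% of all genes. In cPLA_2_ KO DCs 2 rose and 5 fell, beside 22.8% and 23.4%, and with LPS 4 rose and 7 fell, beside 37.2% and 34.3%. With the same total per library these counts were 3 and 7, 2 and 6, and 3 and 12. Over all genes they were then 3575 and 7403, 3717 and 4640, and 3606 and 10246. Between nonconfined genotypes 0 of the 16 were called by limma, beside 8.88% of all genes, so that a count of 0 or 1 lies near the background. With so few neighbours each count moves in large steps, and beside the shares of all genes it is not read as a trait of the stretch. The receptor genes themselves moved in both directions, since *Fcgr3* fell with LPS while *Fcgr2b*, on the other side of *Fcgr4*, rose. *Fcrla*, the nearest neighbour of *Fcgr2b* on the side away from *Fcgr4*, was called in none of these comparisons. *Fcrlb*, the Fc receptor-like gene beyond it, rose by 2.61 (adjusted p = 5.94e-07) and 1.53 (adjusted p = 0.000588) with confinement in cPLA_2_ WT DCs and in cPLA_2_ KO DCs, and by 3.90 (adjusted p = 1.41e-12) with LPS. Its counts were low, at 12.6 ± 2.02 in nonconfined and 81.4 ± 4.55 in confined cPLA_2_ WT cells. In cPLA_2_ KO cells they were 7.32 ± 4.86 and 20.3 ± 1.22, so its fold changes start near the floor. *Adamts4*, a secreted protease gene near *Fcer1g*, changed by 3.15 (adjusted p = 8.98e-07) with confinement in cPLA_2_ WT and 0.08 (adjusted p = 0.888) in cPLA_2_ KO DCs, with an interaction of -3.06 (adjusted p = 0.000326). This gene was low too, with a mean of 81.1 normalized counts over the 18 libraries.

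**Figure D4:**
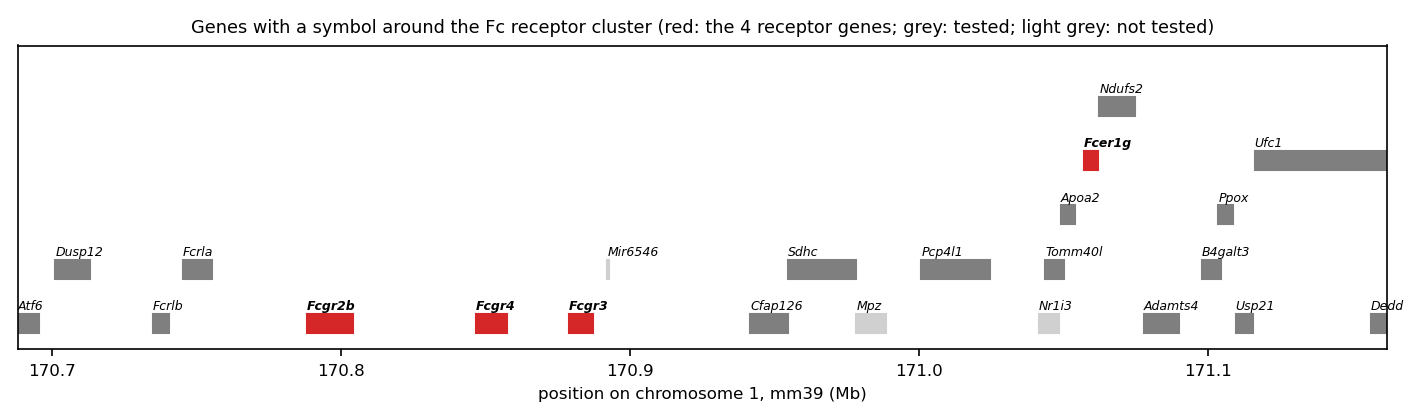
Map of the genes with a symbol on chromosome 1 of mm39 (horizontal axis in Mb) around the Fc receptor cluster, with the 4 receptor genes in red, tested neighbours in grey and genes not tested in light grey; the rows only keep the boxes from overlapping. *Fcgr2b*, *Fcgr4* and *Fcgr3* lie side by side, and *Fcer1g* lies further along, among genes of other families.

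Reads of related genes can be hard to tell apart. Over their coding sequences *Fcgr2b* and *Fcgr3* were 80.6% identical, and the other pairs of Fcγ receptor genes between 58.6% and 63.1%. Of 1446 windows of 100 bases along the canonical *Fcgr3* transcript, 44 (3.04%) also occurred in *Fcgr2b*. Of 3304 windows along *Fcgr2b*, 229 (6.93%) also occurred in transcripts of another gene. *Fcgr1*, *Fcgr4*, *Fcer1g* and *Fcgrt* had no shared window. The part of shared reads in the values of *Fcgr3* and *Fcgr2b* was not tested.

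The stretch from 250 bases before to 50 bases after the start of the canonical GENCODE transcript was read from GRCm39 for all 6 genes and searched on both strands for 3 short motifs. They were TTCNNNGAA, the GAS element of interferon-responsive genes, GAAANNGAA, a part of the interferon-stimulated response element, and GAGGAA, a core bound by PU.1 and other ETS factors. Over 21757 protein-coding promoters of the same length, 8.82%, 8.78% and 27.5% held them. *Fcgr1* held TTCCCAGAA at positions -56 to -48 and a GAGGAA core on the other strand. *Fcgr4* held all 3, among them TTCTATGAA at -225 to -217 and GAAAAGGAA at -44 to -36. *Fcgr3*, *Fcgr2b* and *Fcgrt* held none of the motifs. The promoters of *Fcgr2b* and *Fcer1g* are printed because these genes moved together over the 18 libraries on the deposited scale, though not with the same total per library, 5′ to 3′ on the minus strand at chr1:170803647-170803946 and chr1:171062170-171062469. Capitals mark motif matches, which in *Fcer1g* are 2 copies of GAGGAA read on the other strand, and no matches overlapped. A match describes letters and not a bound factor.
Fcgr2b: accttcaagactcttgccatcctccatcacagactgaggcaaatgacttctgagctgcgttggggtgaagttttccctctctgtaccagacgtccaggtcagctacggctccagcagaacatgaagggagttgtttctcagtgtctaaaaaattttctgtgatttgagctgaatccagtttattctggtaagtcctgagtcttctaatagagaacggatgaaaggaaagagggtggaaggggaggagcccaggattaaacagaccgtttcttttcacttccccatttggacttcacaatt
Fcer1g: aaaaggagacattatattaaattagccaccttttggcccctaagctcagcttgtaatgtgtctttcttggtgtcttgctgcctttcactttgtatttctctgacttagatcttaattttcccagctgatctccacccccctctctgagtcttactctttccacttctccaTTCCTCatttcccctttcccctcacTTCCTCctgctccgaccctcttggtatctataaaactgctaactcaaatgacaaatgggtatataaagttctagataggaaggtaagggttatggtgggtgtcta

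Genes around the receptors were taken from textbook lists. Of all genes tested, 28.2% rose and 28.4% fell with confinement in cPLA_2_ WT DCs, 22.8% and 23.4% in cPLA_2_ KO DCs, and 37.2% and 34.3% with LPS. These shares are the reference for the counts of each list on the deposited scale, the marker lists included. With the same total per library 3575 genes rose and 7403 fell with confinement in cPLA_2_ WT DCs. In cPLA_2_ KO DCs 3717 rose and 4640 fell, and with LPS 3606 rose and 10246 fell. By the interaction 4740 were then higher and 1967 lower. These are the reference for list counts at the same total. Other receptors for antibodies formed a list of 12 genes, of which 8 were tested. With confinement in cPLA_2_ WT DCs 2 rose and 2 fell, in cPLA_2_ KO DCs 1 rose and 3 fell, and with LPS 5 rose and 2 fell. Scaled to the same total, 2 rose and 3 fell in cPLA_2_ WT DCs and the other counts stayed. The medians of their log2 fold changes were -0.03, -0.81 and 1.03, beside -0.01, 0.01 and 0.02 over all genes tested. With the same total per library they were -0.25, -0.85 and 0.54, beside -0.23, -0.03 and -0.47. *Trim21*, a cytosolic receptor that binds antibody on particles inside the cell, stood at 571 ± 12.6 normalized counts in nonconfined and 1293 ± 85.6 in confined cPLA_2_ WT cells. It stood at 574 ± 32.8 and 262 ± 31.4 in cPLA_2_ KO cells and at 2748 ± 68.5 with LPS (SD, n = 6). It thus rose by 1.18 (adjusted p = 1.42e-11) in cPLA_2_ WT and fell by 1.14 (adjusted p = 6.55e-11) in cPLA_2_ KO DCs on the log2 scale, with an interaction of -2.31 (adjusted p = 1.7e-13). *Ms4a2*, the β chain of the high-affinity IgE receptor, which also uses the γ chain, fell in cPLA_2_ WT (-2.21, adjusted p = 2.75e-12) and cPLA_2_ KO DCs (-1.44, adjusted p = 6.6e-09) and with LPS (-0.63, adjusted p = 2.04e-06). *Fcamr* was at 0 in all 18 libraries.

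Further receptors that couple to the FcR γ chain formed a list of 9 genes, 8 of them tested. With confinement 4 rose and 0 fell by limma in either genotype. Of all genes, 28.2% rose and 28.4% fell in cPLA_2_ WT DCs, and 22.8% and 23.4% in cPLA_2_ KO DCs. With LPS 5 rose and 1 fell, beside 37.2% and 34.3%. Scaled to the same total per library, 3 rose and 1 fell in cPLA_2_ WT DCs, 4 and 0 in cPLA_2_ KO DCs, and 4 and 1 with LPS. Their median changes were 0.55, 0.58 and 0.60, beside -0.005, 0.01 and 0.02 over all genes tested. With the same total per library they were 0.40, 0.55 and 0.10, beside -0.231, -0.025 and -0.472. *Clec4e*, the C-type lectin Mincle, went from 993 ± 63.5 to 18496 ± 398 normalized counts with confinement in cPLA_2_ WT DCs (4.22, adjusted p = 2.66e-19). In cPLA_2_ KO DCs it went from 1303 ± 61.2 to 5752 ± 145 (2.14, adjusted p = 1.03e-13), with an interaction of -2.08 (adjusted p = 5.85e-11). It reached 37098 ± 5157 with LPS. *Clec4d*, its partner lectin, rose by 2.06 (adjusted p = 3.78e-13) in cPLA_2_ WT and 1.60 (adjusted p = 6.93e-11) in cPLA_2_ KO DCs and by 2.13 (adjusted p = 1.25e-16) with LPS. *Cd300ld* fell with LPS (-0.89, adjusted p = 2.99e-12).

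Downstream of the activating receptors, 20 signalling genes were all tested. With confinement in cPLA_2_ WT DCs 10 rose and 6 fell, beside 28.2% and 28.4% of all genes, but 7 rose and 8 fell with the same total per library. In cPLA_2_ KO DCs 8 rose and 6 fell, beside 22.8% and 23.4%. With LPS 12 rose and 6 fell, beside 37.2% and 34.3%. With the same total per library 6 rose and 11 fell, where 3606 of all genes rose and 10246 fell. At the same total, 8 rose and 7 fell in cPLA_2_ KO DCs. By the interaction 5 were higher and 7 lower in cPLA_2_ KO DCs, beside 10.2% and 15.6%, or 8 and 5 with the same total per library. *Syk*, the kinase that the γ chain recruits, stood at 5907 ± 118 in nonconfined and 12917 ± 279.6 in confined cPLA_2_ WT cells, at 5907 ± 663 and 9551 ± 584 in cPLA_2_ KO cells and at 20234 ± 872 with LPS. Its rise with confinement was 1.13 (adjusted p = 1.32e-12) in cPLA_2_ WT and 0.70 (adjusted p = 7.94e-09) in cPLA_2_ KO DCs, with an interaction of -0.43 (adjusted p = 0.00079), and with LPS it was 1.78 (adjusted p = 2.82e-19). The kinase gene *Src* rose by 2.93 (adjusted p = 1.09e-18), 1.18 (adjusted p = 1.74e-11) and 3.35 (adjusted p = 4.61e-23) in the same order. *Card9*, an adaptor that links Syk to NF-κB, fell by 1.47 (adjusted p = 4.6e-13) in cPLA_2_ WT DCs and by 1.01 (adjusted p = 6.42e-10) in cPLA_2_ KO DCs on the log2 scale, and by 1.83 (adjusted p = 6.29e-18) with LPS. *Pik3cd*, a catalytic subunit of PI3-kinase, changed by -0.90 (adjusted p = 2.95e-10) in cPLA_2_ WT and -0.24 (adjusted p = 0.00765) in cPLA_2_ KO DCs. *Lat2*, a membrane adaptor, changed by -1.56 (adjusted p = 1.83e-18) with LPS. *Tyrobp*, which encodes the adaptor DAP12 that works like the γ chain, changed by -0.20 (adjusted p = 0.00892) in cPLA_2_ WT and -0.16 (adjusted p = 0.0344) in cPLA_2_ KO DCs and by -0.40 (adjusted p = 2.47e-08) with LPS.

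Another list held 9 genes that act downstream of the inhibitory receptor or on the same inhibitory signal. With confinement in cPLA_2_ WT DCs 2 rose and 5 fell, beside 28.2% and 28.4% of all genes. In cPLA_2_ KO DCs 1 rose and 4 fell, beside 22.8% and 23.4%. With LPS 4 rose and 4 fell, beside 37.2% and 34.3%. At the same total, these counts were 1 and 6, 1 and 5, and 3 and 6. *Inpp5d*, which encodes the phosphatase that FcγRIIB recruits, stood at 10318 ± 192 in nonconfined and 7024 ± 156 in confined cPLA_2_ WT cells. It stood at 10232 ± 629 and 9909 ± 508 in cPLA_2_ KO cells and at 4012 ± 191 with LPS. It fell with confinement in cPLA_2_ WT DCs (-0.56, adjusted p = 1.04e-08), the value in cPLA_2_ KO DCs was -0.05 (adjusted p = 0.509), and the interaction was 0.51 (adjusted p = 1.93e-05). With LPS it fell by 1.36 on the log2 scale (adjusted p = 1.88e-18), so that *Fcgr2b* and *Inpp5d* moved in opposite directions with confinement in cPLA_2_ WT DCs and with LPS. *Ptpn6*, the phosphatase SHP-1, fell with confinement in cPLA_2_ WT (-0.72, adjusted p = 9.45e-13) and cPLA_2_ KO DCs (-0.68, adjusted p = 7.27e-12) and gave 0.03 (adjusted p = 0.399) with LPS, or -0.47 and called with the same total per library. The docking protein gene *Dok2* fell in cPLA_2_ WT DCs (-1.23, adjusted p = 2.01e-12), in cPLA_2_ KO DCs (-0.96, adjusted p = 2.95e-10) and with LPS (-1.68, adjusted p = 5.21e-18), while *Dok1* rose by 0.56 (adjusted p = 9.11e-07), 0.20 (adjusted p = 0.0253) and 1.05 (adjusted p = 4.46e-14). *Ptpn11* rose by 0.24 (adjusted p = 0.00439) in confined cPLA_2_ WT DCs, or by 0.013 and not called with the same total per library. The ubiquitin ligase gene *Cblb* rose by 1.18 (adjusted p = 1.01e-11) with LPS.

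A list of 10 known regulators of Fcγ receptor genes, with cytokines and transcription factors, had 9 tested members. With confinement 7 rose and 1 fell in cPLA_2_ WT DCs, beside 28.2% and 28.4% of all genes. In cPLA_2_ KO DCs 5 rose and 2 fell, beside 22.8% and 23.4%. The interaction was called for 5, all lower in cPLA_2_ KO DCs, beside 15.6% of all genes lower and 10.2% higher. With the same total per library, however, 2 were higher and 4 lower, beside 4740 and 1967 of all genes. With LPS 8 rose and 0 fell by limma, beside 37.2% and 34.3%, or 6 and 2 with the same total per library. *Il10*, a cytokine known to raise *Fcgr1* in myeloid cells, had no read in nonconfined cPLA_2_ WT libraries, 1493 ± 56.6 normalized counts in confined cPLA_2_ WT cells, 14.5 ± 4.80 in confined cPLA_2_ KO cells and 2144 ± 149 with LPS. *Irf8* changed by 0.42 (adjusted p = 4.28e-08) in cPLA_2_ WT, -0.46 (adjusted p = 2.38e-08) in cPLA_2_ KO DCs and 2.16 (adjusted p = 2.46e-23) with LPS. *Spi1*, which encodes PU.1, changed by -0.19 (adjusted p = 0.0119) in cPLA_2_ WT DCs. *Ifng* was not tested, with 0 reads in the nonconfined and confined libraries.

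Since Fc receptors differ between myeloid cells, marker genes of other cells of the culture were summed in each library. Their part in the results for the receptor genes was not tested. Neutrophil markers, 10 genes led by *S100a9*, summed to 239174, 244267 and 242642 normalized counts in nonconfined cPLA_2_ WT and to 370358, 333024 and 358226 in nonconfined cPLA_2_ KO libraries. Confined cPLA_2_ WT libraries held 154396, 147187 and 144998 and confined cPLA_2_ KO libraries 334024, 346858 and 330984. Libraries labelled LPS cPLA_2_ WT held 309149, 290445 and 292500.5 and those labelled LPS cPLA_2_ KO held 277078, 312719 and 294718. Of the 10, 9 fell with confinement in cPLA_2_ WT DCs, 1 rose and 4 fell in cPLA_2_ KO DCs, and 8 had a higher interaction, beside 10.2% of all genes. Between genotypes 8 were higher in nonconfined cPLA_2_ KO cells, beside 4.78% of all genes, and all 10 in confined cPLA_2_ KO cells, beside 18.8%. With LPS 4 rose and 5 fell. Scaled to the same total, 0 rose and 10 fell in cPLA_2_ WT DCs, 1 rose and 6 fell in cPLA_2_ KO DCs, 9 had a higher interaction, and 0 rose and 10 fell with LPS. Of all genes, 3606 rose and 10246 fell with LPS at this scaling. No neutrophil marker was at 0 in a whole group.

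Monocyte markers, 6 genes led by *Chil3*, summed to 126749.9, 130229 and 129570.0 in nonconfined cPLA_2_ WT and 137793, 137327 and 135152 in nonconfined cPLA_2_ KO libraries. The sums were 124922, 118001 and 119603 in confined cPLA_2_ WT and 176474, 172016 and 176323 in confined cPLA_2_ KO libraries, and 156270.1, 161768 and 158581 under the LPS cPLA_2_ WT label and 159881, 158892 and 159663 under the LPS cPLA_2_ KO label. They were highest in confined cPLA_2_ KO libraries. The mean of *Chil3* was 90533 in nonconfined and 128949 in confined cPLA_2_ KO cells. The mean sums of the other 5 genes were 46224 in nonconfined and 45989 in confined cPLA_2_ KO cells. In nonconfined and confined cPLA_2_ WT cells they were 44229.5 and 41584, and 34211 with LPS. There were 0 rising and 3 falling by limma with confinement in cPLA_2_ WT, 2 rising and 1 falling in cPLA_2_ KO DCs, and 3 rising and 3 falling with LPS, or 0 and 5, 1 and 1, and 1 and 3 with the same total per library. Macrophage markers, 10 genes of which 8 were tested, summed to 27348, 26201 and 27015 in nonconfined cPLA_2_ WT and 32899, 34622 and 33475 in nonconfined cPLA_2_ KO libraries. They summed to 28062, 26914 and 27997 in confined cPLA_2_ WT and 36249, 33209 and 36038 in confined cPLA_2_ KO libraries, and to 47782, 35759.7 and 41720.5 under the LPS cPLA_2_ WT label and 35322, 46592 and 41503 under the LPS cPLA_2_ KO label. The higher sums with LPS came mostly from *Marco*, which stood at 10357 ± 843 there, against 156 ± 13.2 and 722 ± 47.6 in nonconfined cPLA_2_ WT and cPLA_2_ KO libraries. *Cd68* was the most abundant except under the LPS cPLA_2_ WT label, where *Adgre1* was, *Vsig4* was at 0, and *Timd4* was at 0 in all but the confined cPLA_2_ WT and the LPS groups. With confinement 2 rose and 4 fell in both genotypes, with LPS 2 rose and 5 fell, or 1 and 5 in cPLA_2_ WT DCs and 2 and 6 with LPS at the same total. Between genotypes 5 were higher in nonconfined cPLA_2_ KO cells, beside 4.78% of all genes, and 5 in confined cPLA_2_ KO cells, beside 18.8%.

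DC markers, 10 genes led by *Cd74*, summed to 452014, 426237 and 431743 in nonconfined cPLA_2_ WT and 533507, 502983 and 521744 in nonconfined cPLA_2_ KO libraries. They summed to 413335, 384339 and 396758 in confined cPLA_2_ WT and 367342, 353321 and 366159 in confined cPLA_2_ KO libraries, and to 650382, 562352 and 595499 under the LPS cPLA_2_ WT label and 567336, 637561 and 612264 under the LPS cPLA_2_ KO label. On the deposited scale the sums were lowest in confined cPLA_2_ KO libraries, but as a share of all counts they made up 0.998% in cPLA_2_ WT and 1.01% in cPLA_2_ KO cells after confinement. In nonconfined cells the shares were 1.28% in cPLA_2_ WT and 1.49% in cPLA_2_ KO cells. Between confined genotypes 0 were higher and 3 lower by limma in cPLA_2_ KO cells, beside 18.8% and 20.6% of all genes. At the same total 2 were higher and 2 lower, beside 6002 and 2599 of all genes. The interaction was higher for 0 and lower for 6 by limma, beside 10.2% and 15.6% of all genes, or 1 and 3 at the same total. There was 1 gene rising and 8 falling with confinement in cPLA_2_ WT DCs, 10 falling in cPLA_2_ KO DCs, and 8 rising and 1 falling with LPS. At the same total, 1 rose and 9 fell in cPLA_2_ WT DCs, and 2 rose and 6 fell with LPS.

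Mast cell and basophil markers, 10 genes, summed to 10619, 10668 and 10766 in nonconfined cPLA_2_ WT and 15854, 15383 and 15468 in nonconfined cPLA_2_ KO libraries. They summed to 17022, 16371 and 16914 in confined cPLA_2_ WT and 9125, 8814 and 9123 in confined cPLA_2_ KO libraries, and to 19559, 21692 and 20347 under the LPS cPLA_2_ WT label and 22051, 19695 and 20856 under the LPS cPLA_2_ KO label. *Hdc*, which DCs also express, led the sums in confined cPLA_2_ WT and LPS libraries. The sum was lower in confined cPLA_2_ KO than cPLA_2_ WT cells although 6 of the 10 genes were higher there, beside 18.8% of all genes. Lower there was 1 gene, *Hdc*, beside 20.6%. The sums were led by *Cpa3* in nonconfined and *Prss34* in confined cPLA_2_ KO libraries. With confinement 2 rose and 7 fell in cPLA_2_ WT and 2 rose and 8 fell in cPLA_2_ KO DCs, and with LPS 2 rose and 7 fell. At the same total, 1 rose and 8 fell in cPLA_2_ WT DCs and 1 rose and 9 fell with LPS. Eosinophil markers, 8 genes led by *Prg2*, summed to 33439.6, 33348 and 33284 in nonconfined cPLA_2_ WT and 82529.7, 76508 and 78589 in nonconfined cPLA_2_ KO libraries. They summed to 9858, 9354 and 9236 in confined cPLA_2_ WT and 25013, 24679 and 25560.2 in confined cPLA_2_ KO libraries, and to 47547, 27548 and 38108 under the LPS cPLA_2_ WT label and 27528, 47777 and 38759 under the LPS cPLA_2_ KO label. Among nonconfined and confined cells these sums were higher in cPLA_2_ KO than in cPLA_2_ WT cells and lower after confinement. They were lowest in confined cPLA_2_ WT libraries. *Fcgrt* was higher in cPLA_2_ KO cells, lower after confinement and lowest in LPS libraries. The part of eosinophils in the *Fcgrt* values was not tested. With confinement 1 rose and 6 fell in cPLA_2_ WT, 0 rose and 7 fell by limma in cPLA_2_ KO DCs, and 0 rose and 7 fell with LPS, or 0 and 8 at the same total. Markers of B cells summed to between 17.4 and 113 normalized counts per library, with 0 rising and 2 of 4 tested falling by limma with confinement in cPLA_2_ WT DCs, or 3 falling at the same total, and 1 rising with LPS. Markers of NK cells summed to between 40.1 and 122 normalized counts, with the largest part from *Nkg7*, the only 1 of 5 that was tested, which fell with confinement in both genotypes and with LPS, while *Eomes* was at 0 in 5 of the 6 groups.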

How the data were processed

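Deposited values are signal per gene, which the authors made by mapping stranded poly(A) reads with STAR 2.7.5a to mm39 (GRCm39), counting with featureCounts 1.5.0 (Mouse FAST DB genes) and normalizing with a DESeq2 size factor per library (versions from the submitters' processing notes). Multiplied by a constant per library, 100% of the values were whole reads within 0.001.

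Groups came from the sample titles. log2(normalized count + 1) was fitted with limma 3.58.1 in R 4.3.3 (lmFit, contrasts.fit, eBayes with trend), with a mean per group over all 18 libraries. A gene entered the test (17875 did) when 3 or more libraries reached 10 normalized counts, p-values were adjusted over all of them by the Benjamini-Hochberg method, and calls needed an adjusted p under 0.05. The pipeline was tested on simulated data. Median reads per library were 40950397.

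Levels per kilobase used the union of GENCODE exons of GRCm39. Python 3.11.15, pandas 2.3.3, numpy 2.4.6, Biopython 1.88 (coding sequence identity) and matplotlib 3.10.9 were used. The fit was repeated with edgeR 4.0.16, with DESeq2 1.42.0, with TMM scaling, with libraries scaled to the same total, with a pseudocount of 0.5 or 5, without the filter or with 100 instead of 10, on the compared groups alone, with a replicate term, with the LPS labels kept or exchanged, and leaving out single libraries.

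The 6 genes and the lists (other Fc receptors, γ chain-coupled receptors, activating and inhibitory signalling, regulators, and markers of DCs, macrophages, monocytes, neutrophils, mast cells and basophils, eosinophils, B cells and NK cells) were chosen with earlier results of these data known. From each pathway list, up to 2 called genes with the largest increase and 2 with the largest decrease were named for confinement in cPLA_2_ WT DCs and for LPS, if their mean reached 100 normalized counts, besides *Pla2g4a*, *B2m*, *Syk*, *Inpp5d*, *Ptpn6* and *Tyrobp*; not every gene that meets this rule is printed. Other genes named, such as *Fcamr*, *Ifng* and *Ddx3y*, serve to account for list members or labels. *Fcrlb* and *Adamts4* were named as neighbours on chromosome 1 although their means lay below 100 normalized counts. Proteins were not compared because no protein table was given. Surface levels of the receptors were not measured.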

Additional observations from a re-analysis of the deposited data

Results flagged for a closer look

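Of the 6 genes, 2 differed between the genotypes in their response to confinement by the test of the interaction, beside 25.8% of all genes tested. *Fcgr1* had an interaction of -1.17 on the log2 scale, with a decrease in cPLA_2_ KO DCs and overlapping values in cPLA_2_ WT DCs. *Fcgr2b* had an interaction of -0.30, with a larger rise in cPLA_2_ WT DCs, and it was -0.12 and not called with the same total per library. That scaling moved the median interaction of all genes from 0.05 to 0.24.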

How the results depend on the processing

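Of 996 values of the 6 genes under an alternative, 947 kept their direction and their side of the threshold, 14 lost the threshold, 10 gained it and 25 changed sign, some of them near 0 and called in neither setting. All 54 fold changes kept both under each of the pseudocounts of 0.5 and 5, the filter of 100 normalized counts and the term for the replicate number. TMM scaling (-0.027), edgeR (-0.030) and DESeq2 (-0.005) turned only the interaction of *Fcer1g*.

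Of the alternatives that keep all libraries, the same total per library, which moves the median of all genes, changed the most values. It reversed *Fcgr1* (-0.170), *Fcgr3* (-0.018) and *Fcer1g* (-0.091) with confinement in cPLA_2_ WT DCs, *Fcgr3* between nonconfined genotypes (-0.007), *Fcgr4* between confined cPLA_2_ WT and LPS cells (0.149), *Fcgr2b* between confined genotypes (0.14), *Fcgr1* (-0.056), *Fcgr4* (-0.124) and *Fcer1g* (-0.018) with LPS, and *Fcer1g* between confined cPLA_2_ KO and LPS cells (0.17). It took the call from *Fcer1g* with confinement in cPLA_2_ KO DCs (0.11), from the interaction of *Fcgr2b* (-0.12) and from *Fcgr1* between confined cPLA_2_ WT and LPS cells (-0.077). It gave a call to the interactions of *Fcgr3* (0.24), *Fcer1g* (0.20) and *Fcgrt* (0.43), to *Fcgr3* (0.23), *Fcgr4* (0.41) and *Fcer1g* (0.28) between confined genotypes, and to *Fcgr4* between confined cPLA_2_ KO and LPS cells (0.56). The medians of all genes at this scaling were 0.24 for the interaction, 0.19 between confined genotypes and 0.47 between confined cPLA_2_ KO and LPS cells.

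With no filter, *Fcer1g* was not called with confinement in cPLA_2_ WT (0.13) or cPLA_2_ KO DCs (0.14). With the compared groups alone, the interaction of *Fcgrt* (0.24) and *Fcer1g* between confined genotypes (0.13) were called. *Fcgr4* with LPS was -0.001 within the cPLA_2_ KO label and 0.09, not called, for libraries labelled LPS cPLA_2_ WT against nonconfined cPLA_2_ KO.

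Leaving out each library in turn, *Fcer1g* ranged from 0.11 to 0.155 with confinement in cPLA_2_ WT and from 0.10 to 0.20 in cPLA_2_ KO DCs, and the interaction of *Fcgr4* from -0.52 to -0.28, each with calls lost or gained. Signs changed for the interaction of *Fcer1g*, from -0.033 to 0.068, and between the LPS labels for *Fcgr1*, from -0.046 to 0.126, *Fcgr3*, from -0.041 to 0.071, and *Fcgr2b*, from -0.070 to 0.027. Genes called between nonconfined genotypes ranged from 756 to 2097, and between the LPS labels from 0 to 3. The cause of these changes was not tested. Depth limits *Fcgr4* most, at 177 to 321 reads per library.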
